A study of Mus musculus with 3 samples.

Results

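The barcodes described here were those of a mouse kidney single-cell series that carried transcripts of vascular mural cells, the contractile and supporting cells wrapped around blood vessels. A barcode, the tag that marks the RNA of 1 droplet, was taken when at most 50% of its counts were mitochondrial, when it held at least 3 UMIs (unique molecular identifiers, each standing for 1 captured transcript) and at least 2 genes among Myh11, Acta2, Tagln, Rgs5, Pdgfrb, Gucy1a1 and Ren1, and when it held 0 UMIs of the fibroblast genes Pdgfra and Lum and of the endothelial genes Flt1 and Emcn. This rule took 72 of the 22063 barcodes within the mitochondrial limit, out of 22679 in all. The kidneys came from male mice in 3 groups with 1 library each. They were aged mice of 20 months given D+Q (31 selected barcodes of 7888), aged mice of 20 months given vehicle (17 of 5945) and young mice of 3 to 4 months with no named agent (24 of 8230). D+Q is the common short form of dasatinib, a kinase inhibitor, plus quercetin, a flavonoid, and the series describes it as senolytic. The labels give neither how many mice went into a library nor a strain. With 1 library a group, no difference between the groups could be tested, and every interval between libraries covers counting error only.

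In the kidney, smooth muscle cells ring the arteries and arterioles, pericytes sit on the capillaries, mesangial cells hold the glomerular tuft together, and renin cells of the afferent arteriole release the enzyme that starts the renin-angiotensin cascade. These cells share a stromal origin, respond to nitric oxide through soluble guanylate cyclase and to platelet-derived growth factor through its beta receptor, and are known to exchange features with one another and with fibroblasts. Their contractile genes are known to be controlled by serum response factor, which binds the CArG box.

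The promoters of 2 contractile genes are shown, whose lower levels in the aged libraries, described below, rested on 1 young barcode. An exact 10-base form of the CArG box was searched on both strands of the RefSeq promoter windows of build GRCm38.p6. The windows were cut to the 250 bases before each gene's start. This form was present in 482 of 32851 windows (1.47%), which belonged to 439 of 27025 genes (1.62%). Of the 25 genes of the contractile list that had a window, 3 held it (Myl6, Myl9 and Vcl), or 12%. Below, capitals mark the match, which lies in the promoter of the myosin light chain gene Myl9 (chr2:156775214-156775463, plus strand) and starts at position -161 from the gene's start. The window of Acta2 (chr19:34255374-34255623, minus strand), the smooth muscle actin gene, held no exact match in these letters. Boxes that differ from the exact form by a single base were not counted. This window holds such stretches, among them ccctatatgg and ccttgtttgg, so the lack of an exact match does not mean that Acta2 lacks a CArG box. Binding to them was not tested.
Myl9: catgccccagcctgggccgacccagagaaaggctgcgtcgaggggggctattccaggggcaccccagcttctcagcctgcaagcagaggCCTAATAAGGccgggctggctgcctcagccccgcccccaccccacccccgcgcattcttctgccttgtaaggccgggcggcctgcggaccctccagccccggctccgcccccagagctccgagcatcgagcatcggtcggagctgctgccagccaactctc
Acta2: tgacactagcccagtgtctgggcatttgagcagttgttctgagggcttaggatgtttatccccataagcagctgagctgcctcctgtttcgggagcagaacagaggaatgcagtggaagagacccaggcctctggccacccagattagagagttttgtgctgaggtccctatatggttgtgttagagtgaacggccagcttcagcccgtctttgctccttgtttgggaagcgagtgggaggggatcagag

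The selected barcodes summed to 106312 UMIs in the aged D+Q, 45533 in the aged vehicle and 85999 in the young library, out of 21058975, 13944270 and 24346733 UMIs in the whole libraries. Their median depth was 2741, 2075 and 3104.5 UMIs, against 2303, 1886 and 2406 in all other barcodes, and their median mitochondrial share was 7.47%, 6.64% and 5.63%, against 6.02%, 4.45% and 6.05%. Levels below are CPM, each gene's UMIs scaled to 1000000 UMIs summed over the barcodes of a class and library, in which fewer cells of a type and less RNA in each cannot be told apart. Transcripts of the proximal tubule were found in every selected barcode: Kap, abundant in that segment, was counted in 72 of 72. Proximal tubule list genes made up between 0.777% and 8.88% of a selected barcode's UMIs, with a median of 2.68%. Of the barcode sequences, 2 of the 72 also occurred in another library, and 0 were shared between selected barcodes.

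Most selected barcodes passed the rule with few marker UMIs. The median was 4 in each library, and 30 of the 72 held exactly 3 (11 in the aged D+Q, 8 in the aged vehicle and 11 in the young library). Just outside the rule stood 77 barcodes with 2 UMIs of 2 marker genes (29, 19 and 29) and 31 with 3 or more UMIs of a single marker gene (8, 2 and 21). The marker part of the rule was met by 378 barcodes, of which 306 were set aside for a UMI of Pdgfra (208), Emcn (178), Flt1 (150) or Lum (1). The sum over the contractile list, which holds 27 cytoskeletal genes beyond the markers, was 3043, 2332 and 1928 CPM in the barcodes with 2 UMIs of 2 genes. It was 3919, 3464 and 2973 CPM in the selected barcodes with exactly 3 UMIs, and 4653, 4889 and 9987 CPM in those with 4 or more, in the order aged D+Q, aged vehicle and young. In all other barcodes it was 1404, 1610 and 1319 CPM. Barcodes on both sides of the limit thus carried this list above that level, and those just outside stood lower than those inside. The high young value is taken up below.

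**Figure D1:**
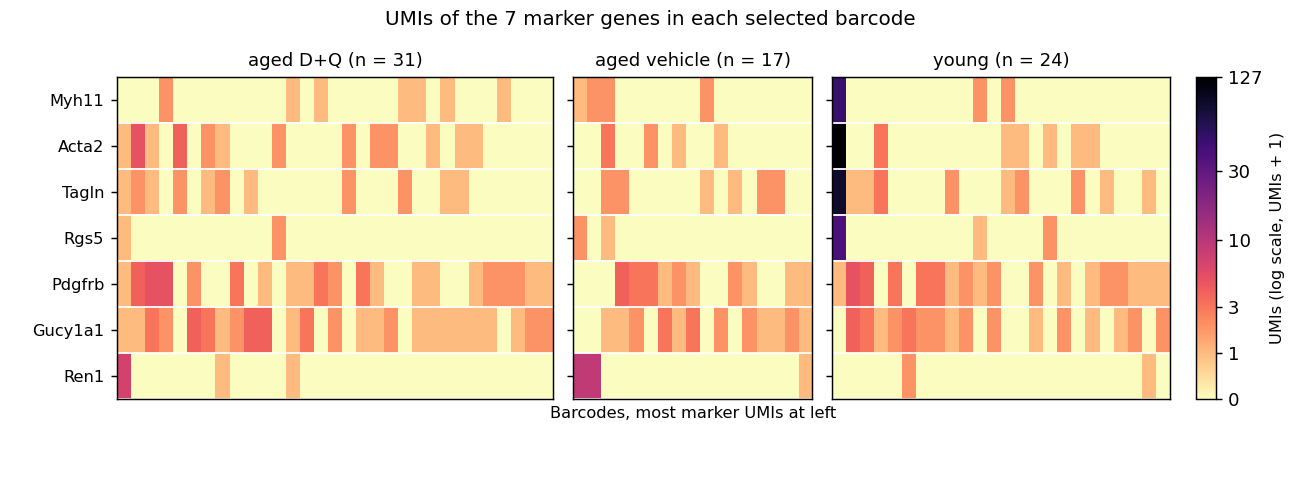
UMIs of the 7 marker genes (rows) in each selected barcode (columns) of the 3 libraries, on a log colour scale of UMIs plus 1. Pdgfrb and Gucy1a1 run through all 3 panels, 1 young barcode at the left edge holds up to 127 UMIs of a contractile gene, and Ren1 stands out in 1 aged D+Q and 2 aged vehicle barcodes.

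Selected barcodes made up 0.393% of the aged D+Q library (exact Clopper-Pearson 95% interval 0.267 to 0.557), 0.286% of the aged vehicle library (0.167 to 0.457) and 0.292% of the young library (0.187 to 0.434). The intervals overlapped, and a difference between the libraries was not detectable at this depth. Thinned to 1000 UMIs a barcode, which removes the difference in depth, the shares were 0.241%, 0.118% and 0.158%, again with overlapping intervals. With at least 5 marker UMIs they were 0.140%, 0.101% and 0.0972%.

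**Figure D2:**
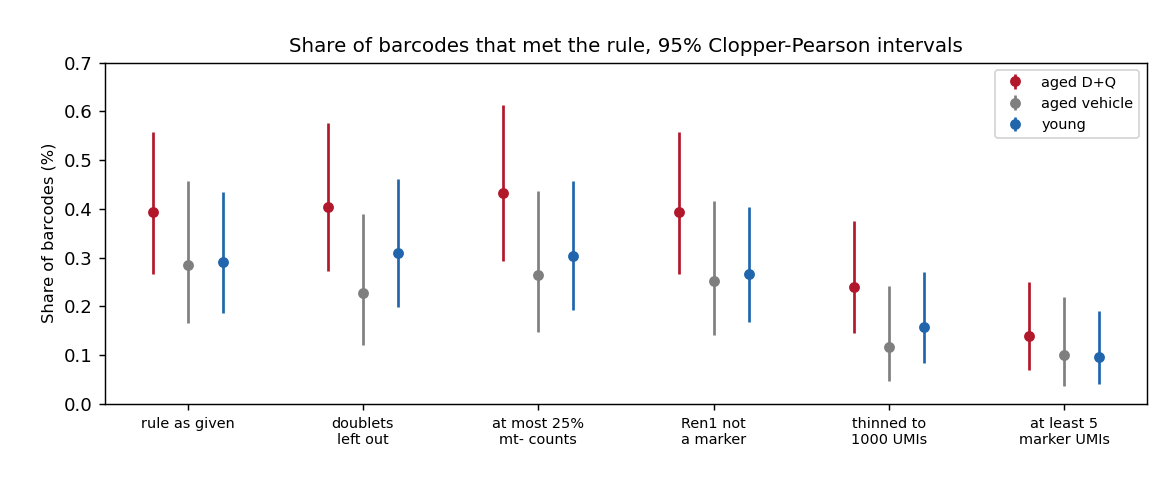
Share of barcodes that met the rule in each library (vertical axis, percent) under the rule as given and 5 other settings, with 95% Clopper-Pearson intervals as bars. The intervals of the 3 libraries overlap at every setting, and the share falls in each library once barcodes are thinned or at least 5 marker UMIs are asked for.

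The 2 marker genes that ran through the selected barcodes were those of the receptor and of the nitric oxide sensor. Pdgfrb, the receptor through which platelet-derived growth factor holds pericytes to vessels, had 43 UMIs in 21 aged D+Q barcodes, 19 in 10 aged vehicle barcodes and 36 in 18 young barcodes. That is 404 CPM (293 to 545) in the aged D+Q, 417 CPM (251 to 652) in the aged vehicle and 419 CPM (293 to 579.5) in the young library. Gucy1a1, a subunit of soluble guanylate cyclase, was at 433 CPM (317 to 577) in the aged D+Q, 439 CPM (268 to 678) in the aged vehicle and 360.5 CPM (245 to 512) in the young library. Each of these genes stood at nearly 1 level in the 3 libraries, with overlapping intervals. In all other barcodes Pdgfrb was at 18.4, 18.3 and 19 CPM and Gucy1a1 at 33.9, 24.6 and 28.9 CPM. Both were found together in 41 of the 72 barcodes, the most frequent pair of markers, and 25 barcodes passed on these 2 genes alone. All of these values chose the barcodes and are given as a description. The identifiers in the files were ENSMUSG00000024620 for Pdgfrb, ENSMUSG00000033910 for Gucy1a1, ENSMUSG00000035783 for Acta2, ENSMUSG00000032085 for Tagln, ENSMUSG00000018830 for Myh11, ENSMUSG00000026678 for Rgs5 and ENSMUSG00000070645 for Ren1.

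The contractile markers behaved otherwise. Acta2, smooth muscle actin, had 25 UMIs in 13 aged D+Q barcodes, 7 in 4 aged vehicle barcodes and 135 in 7 young barcodes, of which 127 lay in 1 young barcode. Its level was 235 CPM (152 to 347) in the aged D+Q, 154 CPM (61.8 to 317) in the aged vehicle and 1569.8 CPM (1316 to 1858) in the young library. Tagln, which encodes the actin-bundling protein transgelin, had 16, 10 and 98 UMIs, and the smooth muscle myosin heavy chain Myh11 8, 7 and 52. Rgs5, a regulator of G protein signalling typical of pericytes, had 3, 3 and 42. In the young library the same barcode held 84 of the Tagln, 48 of the Myh11 and 39 of the Rgs5 UMIs. Acta2 and Tagln were found together in 14 barcodes and Myh11 and Acta2 in 3. Acta2 has near-identical paralogues in its coding sequence, and no source used here says how their reads were divided.

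That barcode held 299 of the 397 marker UMIs of the young library, while the next highest barcode of any library held 12. It had 6260 UMIs, 28.2% of them mitochondrial, and 564 of the 915 UMIs that the young selected barcodes held over the whole contractile list. Calponin (Cnn1), a late marker of differentiated smooth muscle, was counted in it (9 UMIs) and in none of the other 71. It also held 40 of the 43 young UMIs of the tropomyosin Tpm2, 89 of 94 of Sparcl1, a secreted matrix glycoprotein of the vessel wall, 26 of 27 of Crip1 and 12 of 14 of elastin (Eln). It held 17 UMIs of decorin and the fibrillar collagen genes as well. The phospholamban gene Pln had 4 UMIs in all over 3 barcodes, 1 in the aged D+Q, 2 in the aged vehicle and 1 in the young library. Myl9, whose promoter is shown above, had 11 UMIs in 7 aged D+Q barcodes, 3 in 3 aged vehicle barcodes and 25 in 6 young barcodes, of which 20 lay in this barcode. The contractile ratios between libraries therefore stand below with and without it.

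**Figure D3:**
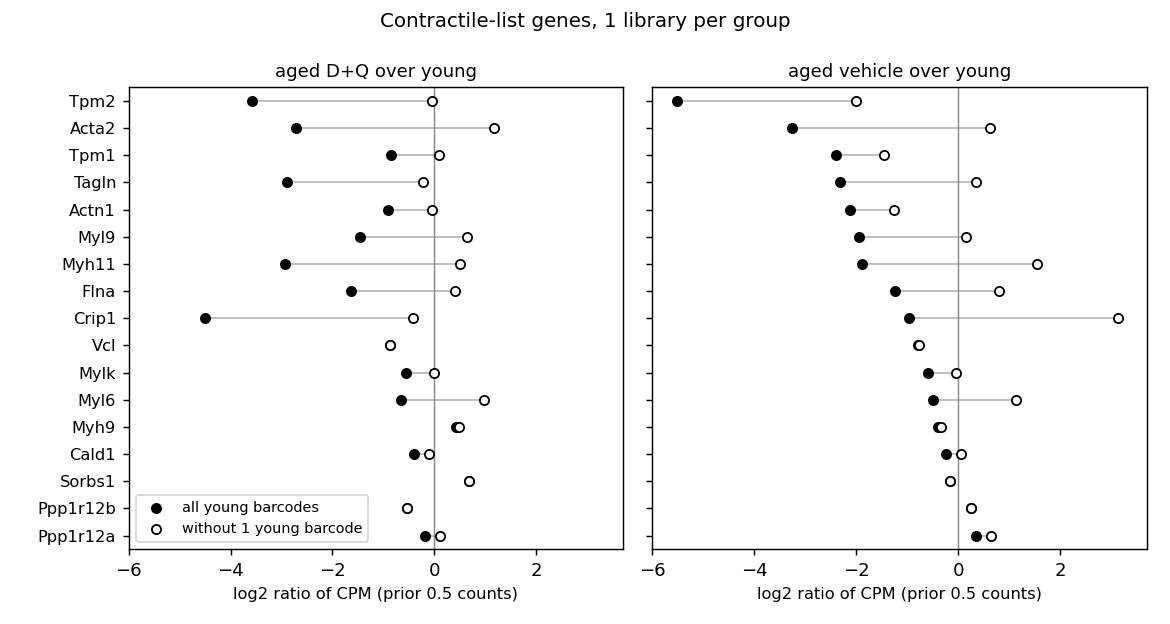
Log2 ratio of CPM (prior of 0.5 counts) for the 17 contractile-list genes with at least 30 counts, aged D+Q over young at left and aged vehicle over young at right, with all young selected barcodes (filled) and without 1 young barcode (open). For Acta2 the ratio moves to 1.17 at left and to 0.63 at right once that barcode is left out, against -2.72 and -3.26 with it, and 5 of the genes reach 30 counts only through it.

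Of this list, 17 genes had at least 30 counts over the 3 libraries, of which 5 reached that limit only through the young barcode, and Acta2, Tagln and Myh11 belong to the rule. The choice of genes thus went with a high young level, and their lower levels in the aged libraries are given as a description: the median log2 ratio was -0.88 in the aged D+Q over the young library, with 7 genes at least 2-fold lower and 0 at least 2-fold higher, and -0.96 in the aged vehicle over the young library, with 8 lower and 0 higher. Over all 1637 genes measured at this depth, 6.17% were at least 2-fold lower and 8.61% higher in the aged D+Q library, and 10.3% lower and 9.35% higher in the aged vehicle library. Without the young barcode 12 genes of the list had at least 30 counts. In the aged D+Q library 1 of these 12 was then at least 2-fold higher, Acta2, and 0 were lower (median 0.10), where 8.61% of all 1591 genes were higher and 6.29% lower. In the aged vehicle library 1 was at least 2-fold higher, the light chain gene Myl6, and 1 lower, the tropomyosin Tpm1 (median 0.16), where 9.43% of all genes were higher and 11.2% lower. Myl9 had a log2 ratio of -1.45 in the aged D+Q and -1.95 in the aged vehicle library over the young one, and of 0.65 and 0.16 without the barcode. Acta2, a gene of the rule, had a log2 ratio of -2.72 in the aged D+Q and -3.26 in the aged vehicle library over the young one, and of 1.17 and 0.63 without the barcode. The contractile direction between aged and young selected barcodes thus rested on 1 barcode. Tpm1, with 4 UMIs in the aged vehicle library against 44 in the young library and 21 without the barcode, had a log2 ratio of -2.39 with it and -1.45 without it.

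Ren1, the renin gene, was found in 8 selected barcodes, 3 in the aged D+Q, 3 in the aged vehicle and 2 in the young library. Of these, 1 aged D+Q barcode held 7 UMIs, 2 aged vehicle barcodes held 9 each, and no young barcode held more than 2. The level was 84.7 CPM (38.7 to 161) in the aged D+Q, 417 CPM (251 to 652) in the aged vehicle and 34.9 CPM (7.19 to 102) in the young library. Over its whole library Ren1 had 94, 88 and 338 UMIs, so the selected barcodes held 9.57%, 21.6% and 0.888% of them. The young library thus had the most Ren1 and the least of it in selected barcodes. Akr1b7, an aldo-keto reductase that marks renin cells in mice, had 2, 1 and 0 UMIs in the selected barcodes. The connexin of renin cells, Gja5, was at 0 in all 72, and the stromal progenitor factor Foxd1 had 3, 0 and 0 UMIs. The 3 barcodes with 3 or more Ren1 UMIs had mitochondrial shares between 18.6% and 27.6%, above the group medians, and both aged vehicle ones were among the barcodes dropped when doublets were left out. Summed over them, the potassium channel-interacting protein Kcnip4 (13 UMIs), the alpha-T-catenin Ctnna3 (12), the cell adhesion molecule Lsamp (12) and dystrophin (Dmd, 12) had the most UMIs after Ren1 among genes at least 20-fold above all other barcodes, and were picked after their values were seen.

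By the balance of their markers, 46 barcodes leaned to pericyte markers (19 in the aged D+Q, 11 in the aged vehicle and 16 in the young library), 16 to contractile markers (7, 4 and 5), 3 were rich in Ren1 and 7 were tied. The contractile list without the markers summed to 4705, 3345 and 18880 CPM in contractile-leaning barcodes (4473 CPM in the young library without the barcode above) and to 4693, 4714 and 4121 CPM in pericyte-leaning barcodes. The pericyte list without the markers summed to 470.5, 1051 and 416 CPM in contractile-leaning and to 488, 325 and 407 CPM in pericyte-leaning barcodes. Without that barcode no library had a contractile list sum in contractile-leaning barcodes more than 1.5-fold from that in pericyte-leaning barcodes, and the pericyte sums of the aged vehicle library rested on 11 and 10 UMIs. A test between the leanings needs at least 10 barcodes of each kind in each library and was not made.

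The label of mural cells was checked against defining genes that the rule did not use, and against 299 fibroblast barcodes, taken by at least 3 UMIs of 2 genes among Pdgfra, Lum, Dcn, Col1a1, Col1a2 and Col3a1 with 0 UMIs of Flt1, Emcn, Myh11, Rgs5 and Ren1. Pericyte genes were sparse. The potassium channel genes of pericytes, Kcnj8 and Abcc9, had 3 and 6 UMIs over all 72 barcodes, Higd1b had 1, and Vtn and Rgs4 were at 0. Abcc9 was counted in 12.9%, 5.88% and 4.17% of the selected barcodes, against 5.20%, 5.85% and 6.06% of proximal tubule barcodes, whose median depths were 2285.5, 1832 and 2365 UMIs. The aged vehicle and young shares lie near those of proximal tubule barcodes, and the aged D+Q share stood above its own but rested on few UMIs. None of them is read as expression, and the part of free RNA in them was not tested. Of the 16 pericyte genes outside the rule, 8, 7 and 6 were at 0. The mesangial gene Itga8 (integrin alpha 8) had 6, 3 and 8 UMIs, and Gata3, a transcription factor of mesangial cells and also of urothelium, 5, 1 and 2. All 5 aged D+Q UMIs of Gata3 lay in 1 barcode that also held 93 UMIs of the urothelium list.

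Fibroblast genes were present in most selected barcodes. Dcn (decorin) or a fibrillar collagen gene (Col1a1, Col1a2 or Col3a1) had a UMI in 55 of the 72, that is in 80.6%, 58.8% and 83.3% of selected barcodes, against 6.14%, 6.26% and 8.71% of proximal tubule barcodes. A fibroblast rule on those 4 genes, of 3 UMIs and 2 genes, was met by 24 selected barcodes (12 of 31 in the aged D+Q, 4 of 17 in the aged vehicle and 8 of 24 in the young library), or 38.7%, 23.5% and 33.3%, against 0.152%, 0.361% and 0.327% of proximal tubule barcodes. The fibroblast list summed to 2427, 1603 and 1442 CPM in selected barcodes, to 4230, 6139 and 3365 CPM in fibroblast barcodes and to 329, 365 and 426 CPM in all other barcodes. This sum includes Dcn, Col1a1, Col1a2 and Col3a1, which helped choose the fibroblast barcodes, so the level there was partly set by their rule. The contractile list summed to 4440, 4239 and 7326 CPM in selected barcodes (4076 CPM in the young library without the barcode above), and to 5230, 5172 and 4666 CPM in fibroblast barcodes. Without its markers, the contractile list was therefore no higher in selected than in fibroblast barcodes in any library once that barcode was left out. Without that barcode, the contractile list thus did not set the 72 apart from fibroblasts. The fibroblast list was lower in them than in fibroblast barcodes in each library, and 24 of the 72 met the 4-gene fibroblast rule. The rule for the fibroblast barcodes also did not exclude Acta2, Tagln, Pdgfrb or Gucy1a1. These values cannot settle whether the 72 are a class apart, and the barcodes are called selected barcodes here.

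Against all other barcodes, 495 genes were higher and 649 lower in the selected barcodes of 14834 fitted, that is 3.34% and 4.38% (edgeR quasi-likelihood test on sums per library, adjusted p under 0.05, marker genes of the rule left out). With DESeq2 and its size factors the counts were 511 higher and 137 lower, so that 78.9% and not 43.3% of the called genes were higher. Without the aged D+Q library 175 genes were higher and 101 lower, and without the young library 288 and 458. The direction was shared by all 3 libraries for 439 of the higher and 595 of the lower genes. Because the rule chose barcodes by such genes, genes that go with the markers in the same cells had to differ, and the fold changes are read as a description of what the barcodes carry. The 3 libraries are 3 conditions, so the spread in this test includes the condition. Against 1639 endothelial barcodes, 467 genes were higher (4.78%) and 291 lower (2.98%) of 9769, with 344 and 71 by DESeq2 and 258 and 81 without the aged D+Q library. Against the fibroblast barcodes, 2 genes were higher (0.0627%) and 0 lower (0%) of 3191, while 353 genes had an unadjusted p under 0.05 and DESeq2 called 1 gene higher. The median log2 fold change over all genes was -0.32, -0.13 and -0.01 in the 3 contrasts.

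**Figure D4:**
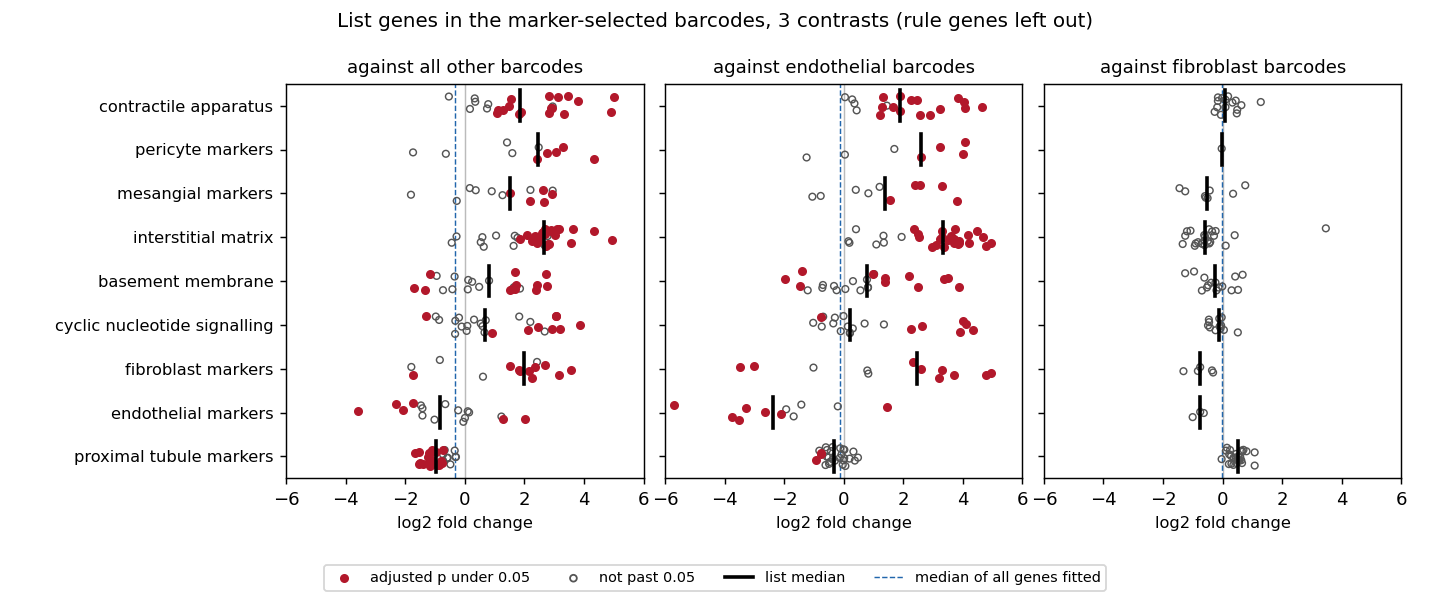
Log2 fold change of the selected barcodes over all other, endothelial and fibroblast barcodes for the genes of 9 lists, each point 1 gene, filled where the edgeR adjusted p was under 0.05, with the list median (black) and the median of all genes (dashed). Contractile and matrix genes sit to the right of 0 in the first and second panels and around or left of 0 in the fibroblast panel. Nos3, with 0 counts in the selected barcodes, lies outside the axis in the first and second panels.

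Of the contractile list, 17 of 24 fitted genes were higher than in all other barcodes and 0 lower, with a median of 1.86. Against endothelial barcodes 15 of 20 were higher (median 1.89), and against fibroblast barcodes 0 of 15 passed by edgeR or DESeq2 and 1 had an unadjusted p under 0.05 (median 0.10). Caldesmon (Cald1), which restrains actin-myosin binding, was at 865, 966 and 1139.5 CPM, against 99.1, 97.2 and 103 CPM in all other barcodes (log2 fold change 2.92 ± 0.24 SE, adjusted p 1.6e-30). It was counted in 80.6%, 100% and 75% of selected barcodes, against 3.60%, 3.27% and 3.94% of proximal tubule barcodes. In fibroblast barcodes it was at 1231, 1169 and 1048 CPM, and the difference was log2 fold change -0.18 ± 0.21 SE, adjusted p 0.79. Myosin light chain kinase (Mylk), which starts contraction, was at 639.6, 615 and 942 CPM, against 235, 289 and 189 CPM (log2 fold change 1.28 ± 0.24 SE, adjusted p 8.0e-06). Filamin A (Flna), an actin crosslinker, had 18, 10 and 46 UMIs, 36 of the young ones in the barcode above. Its log2 fold change was 3.81 ± 0.34 (SE), and 2.99 without that barcode, with an adjusted p of 9.7e-10. Tpm2 was called at 5.02 ± 0.67 (SE) with it, and not without it (2.76, adjusted p = 0.0863).

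Of the cyclic nucleotide list, which holds the genes that make, sense and break down cyclic GMP and cyclic AMP, 8 of 25 fitted genes were higher than in all other barcodes, 1 was lower and 16 did not pass (median 0.66). Gucy1a2, another alpha subunit of soluble guanylate cyclase, was at 696, 373 and 593 CPM, against 52, 48.5 and 52.4 CPM (log2 fold change 3.08 ± 0.26 SE, adjusted p 1.1e-28). Gucy1b1, the beta subunit both alpha subunits pair with, had 13, 4 and 16 UMIs (log2 fold change 3.05 ± 0.50 SE, adjusted p 9.6e-08). Prkg1, the kinase that cyclic GMP activates to relax smooth muscle, was at 1853, 1603 and 2186 CPM, against 246, 254 and 284 CPM (log2 fold change 2.46 ± 0.23 SE, adjusted p 4.7e-23). Pde3a, a phosphodiesterase that breaks down cyclic AMP and is inhibited by cyclic GMP, was at 639.6, 615 and 569.8 CPM, against 66.4, 54.3 and 64.4 CPM (log2 fold change 2.91 ± 0.25 SE, adjusted p 2.1e-27). Each of these 4 genes was also higher than in endothelial barcodes, with log2 fold changes between 2.26 (Prkg1) and 4.09 (Gucy1a2). Against fibroblast barcodes none passed, at -0.05 for Gucy1a2, -0.03 for Gucy1b1, -0.11 for Prkg1 and -0.43 for Pde3a. The cGMP-specific phosphodiesterase Pde5a had 1, 0 and 1 UMIs.

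**Figure D5:**
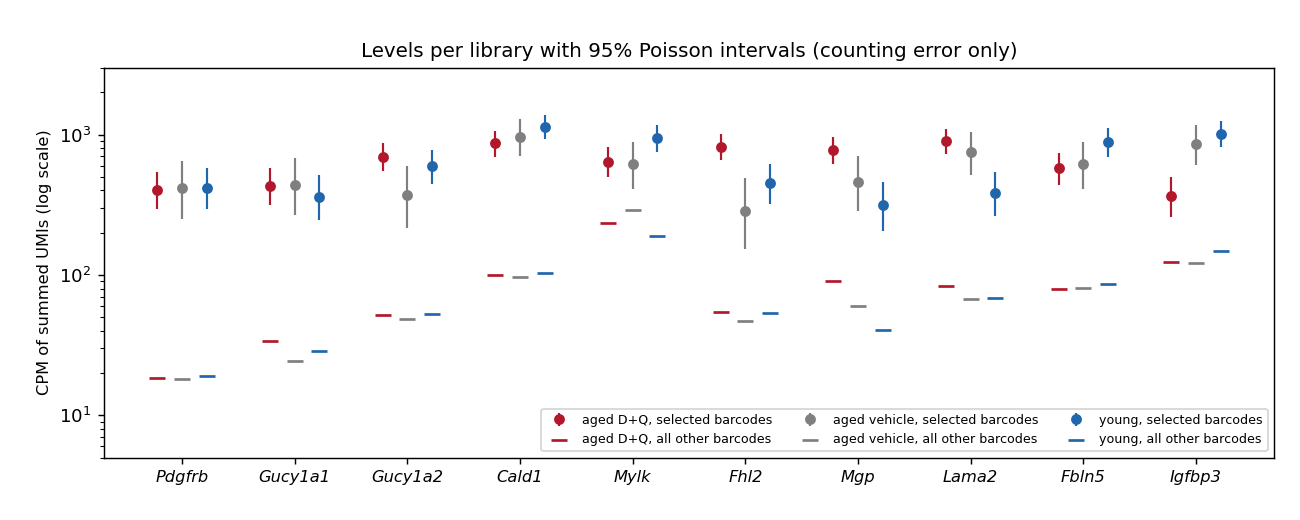
Level (CPM of summed UMIs, log axis) of 10 genes in the selected barcodes of each library (points, 95% Poisson intervals) and in all other barcodes (dashes). Every point lies above its own library's dash, Pdgfrb and Gucy1a1 chose the barcodes, and the libraries stand furthest apart for Fhl2, Mgp, Lama2 and Igfbp3.

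The genes with the largest fold changes over all other barcodes held few UMIs, and several came from 1 barcode. Phospholamban (Pln), the brake on the calcium pump of the sarcoplasmic reticulum, had 4 UMIs in 3 barcodes (log2 fold change 5.46 ± 1.55 SE, adjusted p 0.0094, higher in 3 of 3 libraries). Pln was no longer among the genes fitted once the young barcode described above was left out. Its adjusted p ran up to 0.542 over the settings in which it was fitted. Trpc6, a receptor-operated calcium channel of smooth muscle, had 3, 3 and 1 UMIs (log2 fold change 3.97 ± 1.10 SE, adjusted p 0.0067). Periostin (Postn), a matrix protein of activated stroma, had 10 UMIs in 6 aged D+Q barcodes, 0 in the aged vehicle library and 1 in the young library (log2 fold change 4.32 ± 0.96 SE, adjusted p 3.0e-04). In fibroblast barcodes it was at 46.1, 28.8 and 8.73 CPM. Sfrp5, a secreted inhibitor of Wnt signalling, had 23 UMIs in 6 aged D+Q barcodes, 11 of them in 1, and 0 elsewhere (log2 fold change 4.15 ± 0.87 SE, adjusted p 8.5e-05). Saa3, Pf4 and Wfdc17 had 15, 14 and 12 UMIs in all, each in 1 aged vehicle barcode, so that their calls describe that barcode and not the selected barcodes at large.

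Receptors and channels linked to mural cells were found at lower levels, and the fold changes here are over all other barcodes. Of the pericyte list, 5 of 10 fitted genes were higher than in all other barcodes (median 2.45), and 1 of the 16 outside the rule could be fitted against fibroblast barcodes. Notch3, the receptor that keeps arterial smooth muscle mature, had 8, 9 and 3 UMIs (log2 fold change 3.28 ± 0.63 SE, adjusted p 1.4e-05). The endothelin receptor Ednra had 3, 6 and 3 UMIs (log2 fold change 2.41 ± 0.73 SE, adjusted p 0.019), and the angiotensin receptor Agtr1a 27, 5 and 22 (log2 fold change 1.53 ± 0.31 SE, adjusted p 5.1e-05). Cacna1c, the pore of the L-type calcium channel that triggers contraction, had 14, 3 and 22 UMIs, 14 of the young ones in the barcode above (log2 fold change 3.47 ± 0.49 SE, adjusted p 3.4e-10), and its auxiliary subunit Cacna2d1 36, 11 and 21 (log2 fold change 3.04 ± 0.32 SE, adjusted p 1.4e-18). Of the vasoactive receptor list 5 of 23 genes were higher, and of the channel list 7 of 30 were higher and 1 lower. The receptor list summed to 1496, 1098 and 1070 CPM in selected barcodes, against 1850, 1503 and 1653 CPM in fibroblast barcodes. For the channel list they were 4139, 3009 and 4012, against 4108, 3536 and 3720 CPM. For the pericyte list without markers they were 433, 637 and 419, against 563, 397 and 378 CPM. Against fibroblast barcodes 0 of 4 receptor genes and 0 of 14 channel genes passed by edgeR or DESeq2. By edgeR, 2 and 1 of them had an unadjusted p under 0.05.

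Of the mesangial list, 5 of 13 fitted genes were higher than in all other barcodes and 0 lower (median 1.53), and 0 of 8 passed against fibroblast barcodes by edgeR or DESeq2 while 3 had an unadjusted p under 0.05 (median -0.54). Fhl2, a LIM-domain protein of mesangial and muscle cells, was at 818, 286 and 453 CPM, against 54.7, 47.1 and 53.1 CPM (log2 fold change 2.94 ± 0.27 SE, adjusted p 7.3e-25). Matrix Gla protein (Mgp), which restrains calcification of the vessel wall, was at 781, 461 and 314 CPM, against 89.9, 60.3 and 40.4 CPM (log2 fold change 2.64 ± 0.26 SE, adjusted p 1.1e-20). In fibroblast barcodes Mgp was at 2669, 852 and 635 CPM, and the difference missed the threshold (log2 fold change -1.26 ± 0.24 SE, adjusted p 0.089). Both genes were highest in the aged D+Q library both among selected and among fibroblast barcodes.

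The interstitial matrix list had the most fitted genes and also the most members called against all other barcodes, so this rank by number goes with its size. Of the interstitial matrix list, 24 of 38 fitted genes were higher than in all other barcodes and 0 lower (median 2.66), and 23 of 30 were higher than in endothelial barcodes (median 3.33). Against fibroblast barcodes 0 of 23 passed by edgeR or DESeq2 and 11 had an unadjusted p under 0.05, with a median of -0.60. Fibulin 5 (Fbln5), which assembles elastic fibres, was at 574, 615 and 884 CPM, against 79.2, 80.2 and 86.4 CPM (log2 fold change 2.68 ± 0.25 SE, adjusted p 3.1e-24). Collagen III (Col3a1) had 24, 8 and 31 UMIs (log2 fold change 3.55 ± 0.35 SE, adjusted p 3.5e-21), and decorin (Dcn) 49, 13 and 19 (log2 fold change 2.37 ± 0.29 SE, adjusted p 6.0e-14). The connective tissue growth factor Ccn2 was at 630.2, 264 and 395 CPM, against 64.6, 35.5 and 42.8 CPM (log2 fold change 2.80 ± 0.28 SE, adjusted p 1.8e-21). Of the basement membrane list 9 of 23 genes were higher and 3 lower. The laminin chain Lama2, which anchors muscle and stromal cells, was at 903, 747 and 384 CPM, against 82.8, 67 and 68.1 CPM (log2 fold change 2.78 ± 0.25 SE, adjusted p 3.9e-25), and the collagen IV chain Col4a1 at 292, 219.6 and 465 CPM, against 68.7, 67.1 and 101 CPM (log2 fold change 1.68 ± 0.28 SE, adjusted p 1.8e-07).

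Dystrophin (Dmd), which links actin to the basement membrane, had 90, 24 and 70 UMIs (log2 fold change 3.03 ± 0.25 SE, adjusted p 3.2e-30), and 11 of the 31 fitted genes of its list were higher and 1 lower. The discoidin receptor Ddr2, which binds fibrillar collagen, had 10, 7 and 11 UMIs (log2 fold change 3.20 ± 0.53 SE, adjusted p 2.1e-07). Of the 35 fitted transcription factors linked to mural cells, 9 were higher than in all other barcodes and 1 lower. Among them were the homeobox factor Meis1 (log2 fold change 2.41 ± 0.28 SE, adjusted p 6.1e-16), Ebf1, a factor of pericyte differentiation in mice (log2 fold change 1.76 ± 0.25 SE, adjusted p 1.8e-10), and Zeb2 (log2 fold change 1.47 ± 0.23 SE, adjusted p 2.7e-08). Tcf21, a factor of stromal and fibroblast fate, had 7, 6 and 11 UMIs (log2 fold change 2.24 ± 0.50 SE, adjusted p 3.5e-04). The transcription factor list summed to 8042, 6698 and 6337 CPM in selected barcodes, below both nearest classes in each library. It was at 9937, 8253 and 8854 CPM in fibroblast barcodes and at 8519, 6742 and 7074 CPM in endothelial barcodes. Against fibroblast barcodes 0 of 20 fitted factors passed by edgeR or DESeq2, and 3 had an unadjusted edgeR p under 0.05. Serum response factor (Srf) had 2, 0 and 1 UMIs and its smooth muscle cofactor myocardin (Myocd) 2, 0 and 0, too few to call. Csmd1 and Robo2, which are best known from the nervous system, were at 2004, 1449.5 and 1849 CPM and at 988, 659 and 1291 CPM, and 39 of the 72 barcodes held at least 5 UMIs of the neural list that contains them. Csmd1 was at 3051, 1613 and 1307 CPM in fibroblast barcodes, and the difference there was log2 fold change -0.06 ± 0.22 SE, adjusted p 0.96.

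The 2 genes called higher than in fibroblast barcodes were Ctnna3 and Dgkb. Ctnna3, an alpha-catenin of cell junctions, had 14, 14 and 10 UMIs in selected barcodes, against 4, 3 and 9 in the more numerous fibroblast barcodes. Its log2 fold change was 3.08 ± 0.52 (SE) with an edgeR adjusted p of 0.045, higher in 3 of 3 libraries. Dgkb, a diacylglycerol kinase, had 23, 7 and 14 UMIs, with a log2 fold change of 2.31 ± 0.38 (SE) and the same adjusted p. Of the 38 Ctnna3 UMIs, 12 lay in the 3 barcodes rich in Ren1, and 7 of the 10 young ones in the young barcode described above. Of the 44 Dgkb UMIs, 9 lay in the barcodes rich in Ren1, and 11 of the 14 young ones in that young barcode. Neither gene was still among those fitted once that barcode was left out, so neither was tested there. A mitochondrial limit of 25%, at which 0 genes were called, removes that barcode as well and is not a separate check. Over the settings in which they were fitted, their adjusted p ran up to 0.443 for Ctnna3 and 0.633 for Dgkb. Without the aged vehicle library 16 genes were higher and 17 lower of 4728 fitted, without the young library 11 and 18 of 3376, and without the aged D+Q library 1 and 1 of 3122. Sparcl1, at 3.46 ± 0.71 (SE) and an adjusted p of 0.11, was the farthest above 0 among the list genes and owed 89 of its 110 UMIs to the young barcode.

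Genes of the proximal tubule were among those that were lower. Of this list, 19 of 28 genes were lower than in all other barcodes, 14631 of which met a proximal tubule rule, and 0 were higher (median -0.95). Slc34a1, the phosphate transporter of that segment, had 185, 147 and 251 UMIs in selected barcodes (log2 fold change -1.24 ± 0.24 SE, adjusted p 2.1e-05), and summed over the list their level was 29070, 34060 and 30850 CPM, against 41300, 38670 and 39980 CPM in all other barcodes. Endothelial genes outside the rule were lower than in endothelial barcodes for 6 of 12 fitted genes (median -2.38), among them Pecam1 (log2 fold change -4.23 ± 0.54 SE, adjusted p 9.4e-13) and Tek (log2 fold change -4.18 ± 0.47 SE, adjusted p 7.4e-17). Igfbp3 was the 1 gene of this list that was higher (log2 fold change 1.45 ± 0.25 SE, adjusted p 2.3e-07).

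The lists tied to the treatment are read against the 3.34% of all genes that were higher and the 4.38% that were lower than in all other barcodes. Of the kinases that dasatinib is known to inhibit, 2 of 28 fitted genes were higher (Pdgfrb, also a target, chose the barcodes), namely Ddr2 and the ephrin receptor Epha3 (log2 fold change 3.43 ± 0.63 SE, adjusted p 3.7e-06), and the list's median was -0.23. Of the survival factors of senescent cells 1 of 15 was higher, the phosphoinositide 3-kinase subunit Pik3r1 (log2 fold change 1.63 ± 0.27 SE, adjusted p 1.3e-07). Of the cell cycle arrest and senescence list 0 of 23 genes passed in either direction by edgeR or DESeq2, and 3 had an unadjusted p under 0.05. The p21 gene Cdkn1a had 2, 0 and 1 UMIs, and the p16 gene Cdkn2a had 0 in all 72 barcodes, which allows up to 28.2, 65.9 and 34.9 CPM. Secretory phenotype genes were higher in 8 and lower in 1 of 24, a list that shares Serpine2 and Igfbp5 with the mesangial one.

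The aged D+Q library was then set against the aged vehicle library, the comparison that addresses the treatment. Of 1637 genes with at least 30 counts in selected barcodes, 175 were at least 2-fold higher in the aged D+Q library (10.7%) and 109 at least 2-fold lower (6.66%), with a median log2 ratio of 0.01. With TMM scaling, which is less moved by a few abundant genes, the counts were 257 and 74 and the median of all genes was 0.22. In the mesangial list 3 of 5 genes were at least 2-fold higher and 0 lower (median 1.10). The fibroblast list moved with it, with 1 of 7 genes at least 2-fold higher and 0 lower (median 0.65), or 3 of 7 and 0 by TMM, and the fibroblast rule on 4 genes was met by 12 of 31 aged D+Q and 4 of 17 aged vehicle barcodes. The part of fibroblast transcripts in the mesangial values was not tested. Fhl2 had 87 UMIs in 17 of 31 aged D+Q barcodes and 13 in 4 of 17 aged vehicle barcodes. The contractile list had 3 higher and 2 lower of 17, with a median of -0.09, and the interstitial matrix list 2 higher and 1 lower of 19 (median -0.13). By TMM these medians were 0.13 and 0.08, below the median of all genes as before. The proximal tubule list had 2 higher and 5 lower of 25, with a median of -0.36, beside the lower summed level of that list in aged D+Q selected barcodes given above.

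Some of the largest differences rested on 1 or a few barcodes. The adhesion molecule Alcam had 161 UMIs in 12 aged D+Q barcodes, 55 of them in 1, against 2 in the aged vehicle library, a log2 ratio of 4.79 (95% interval 3.23 to 8.17). In all other barcodes Alcam was at 112 CPM in the aged D+Q and 105 CPM in the aged vehicle library. The calcium-activated potassium channel Kcnma1 had 30 UMIs in 8 aged D+Q barcodes and 0 in the aged vehicle library, at least 4.28-fold higher than the 3 counts that a count of 0 allows. Counting error in the 30 UMIs is not in that bound, and the exact 95% interval of the log2 ratio began at 1.71. Collagen I (Col1a1) had 31 UMIs in 7 aged D+Q barcodes, 18 in 1 of them, against 1 UMI (log2 ratio 3.17, 1.15 to 9.08). The syntrophin Sntb2, a partner of dystrophin, was spread more evenly, with 24 UMIs over 16 aged D+Q barcodes and at most 3 in any, against 1 UMI in the aged vehicle library (2.81, 0.75 to 8.72). The immunoglobulin-like adhesion protein Nptn likewise had 23 UMIs over 16 barcodes, against 1 (2.75, 0.68 to 8.66).

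Among the genes lower in the aged D+Q library, Lyz2 and Slpi came from single barcodes. Lyz2, lysozyme of macrophages, had 0 UMIs in the aged D+Q and 71 in the aged vehicle library, 68 of them in 1 barcode that also held 100 UMIs of the leukocyte list. Slpi, a secreted protease inhibitor, had 4 UMIs in the aged D+Q library, against 76 in a single aged vehicle barcode. Fibronectin (Fn1) had 9 UMIs, against 23 in the aged vehicle library with 20 in 1 barcode, and its log2 ratio of -2.53 became 0.23 without the barcodes rich in leukocyte UMIs. The oxidase Nox4, which is abundant in the proximal tubule, had 21 UMIs in 10 aged D+Q barcodes and 36 in 12 aged vehicle barcodes (-1.99, -2.85 to -1.19). Its level in all other barcodes was 1101 CPM in the aged D+Q and 1406 CPM in the aged vehicle library, above that in selected barcodes. The leukocyte list summed to 527, 2482 and 140 CPM, and the urothelium list to 988, 110 and 593 CPM, in the selected barcodes of the aged D+Q, aged vehicle and young libraries. The part of such barcodes in the other differences was not tested beyond leaving them out.

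Against the young library, the aged D+Q library was lower at Crip1 (log2 ratio -4.50), Rgs5 (-3.91), Tpm2 (-3.58), Sparcl1 (-3.34) and Myh11 (-2.93), of which the young barcode held most of the young UMIs. Without it Sparcl1 stood at 0.65 and Myh11 at 0.50, and the others were at 1, 3 and 4 UMIs in the aged D+Q library against 1, 3 and 3 left in the young library. Ratios that did not rest on it were those of the receptor tyrosine kinase Erbb4, with 4 UMIs in 4 aged D+Q barcodes and 39 in 10 young barcodes (-3.44, -5.54 to -2.12), and of the peroxisomal membrane protein Pxmp2, with 3 and 27 (-3.28, -5.84 to -1.78). The netrin Ntn4, a basement membrane protein, had 31 UMIs in 11 aged D+Q barcodes, 18 in 1 of them, against 2 in the young library (3.35, 1.67 to 6.76). Alcam was higher here as well, at 161 against 19 UMIs (2.74, 2.09 to 3.55). The fibroblast list had 4 of 7 genes at least 2-fold higher and 0 lower (median 1.04), where 8.61% of all genes were higher and 6.17% lower, beside a share of selected barcodes meeting the 4-gene fibroblast rule of 12 of 31 in the aged D+Q and 8 of 24 in the young library. Any pair of the 3 comparisons shares a library, so that they are not independent of each other.

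The aged vehicle library against the young one, which addresses age, had 153 genes at least 2-fold higher and 169 lower, or 85 and 297 by TMM, with a median of all genes of 0.05 and, by TMM, -0.23. By median of ratios the counts were 120 and 233. Erbb4 had 2 UMIs in 1 aged vehicle barcode, against the same 39 in 10 young barcodes (-3.06, -6.46 to -1.42), and in all other barcodes its level was 298 CPM in the aged vehicle and 350.2 CPM in the young library. The matrix protein Sparc had 3 UMIs in the aged vehicle and 39 in the young library, 19 of them in the contractile barcode (-2.58, and -1.74 without that barcode). The calcium-binding protein S100a6 had 2 UMIs, against 25 in 11 young barcodes (-2.43, -5.85 to -0.72), and in all other barcodes its level was 24.3 CPM in the aged vehicle and 154 CPM in the young library. Higher were Gria4, a glutamate receptor subunit, with 33 UMIs, 17 of them in 1 barcode, against 9 (2.74, 1.70 to 4.04), apolipoprotein E (Apoe) with 26, 14 of them in 1 barcode, against 12 (2.00, 1.00 to 3.15) and Tpt1, a translationally controlled protein, with 56 UMIs in 14 aged vehicle barcodes, 15 of them in 1, against 36 in 17 young barcodes (1.55, 0.93 to 2.20). Igfbp3, a growth factor binding protein of the vessel wall, was at 367, 857 and 1012 CPM.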

How the data were processed

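Single-cell 3' RNA libraries of whole kidney were made, per the labels' protocols, from tissue digested with collagenase II, with a MobiCube kit. The authors deposited raw UMI counts per gene and barcode for 3 libraries, and these counts were used as deposited. No source used here gives the aligner, the counter or how barcodes were chosen. Per the submitters' processing notes the genome builds GRCm39 and mm10 were involved, with no role stated. The files list 33696 genes, and library totals were 21058975 UMIs (aged D+Q), 13944270 (aged vehicle) and 24346733 (young). The labels put 1 library in each group and name no animals, so nothing separates animals, and intervals and floors cover counting error only.

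The 616 barcodes above 50% mitochondrial counts were dropped, and 0 of them met the marker rule. Of the barcode sequences, 61 of the aged D+Q, 66 of the aged vehicle and 71 of the young library also occurred in another library. Selected, endothelial, fibroblast and all other barcodes were summed per library. Classes were compared with edgeR 4.0.16 (R 4.3.3; quasi-likelihood, TMM, filterByExpr, library as a block, Benjamini-Hochberg adjustment over all fitted genes), a step tested on simulated data. Replicate numbers in the labels do not pair samples, since each block is 1 library. Libraries were compared by CPM with exact Poisson intervals and by log2 ratios with a prior of 0.5 counts and exact conditional binomial intervals, for genes with at least 30 counts. The fibroblast class excludes selected barcodes, 19 of which met its rule too.

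Doublets stayed in: Scrublet (scanpy 1.11.5) marked 1, 0 and 2 barcodes by its own threshold, too few to have worked, and an alternative left out the top scores. Other alternatives were DESeq2 1.42.0, no filter on low counts, no library term, each library left out, other mitochondrial and marker limits, other scalings and 60 counts. Named genes were the 7 markers, the 20 largest fold changes among genes higher than in all other barcodes, the 8 largest in each direction of the other contrasts and library comparisons (for libraries, at least 20 counts and an interval beyond 1.5-fold), and up to 4 members a list by summed counts; further genes were named for their role. The members and lists were chosen with earlier results of these data known.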

Additional observations from a re-analysis of the deposited data

How the results depend on the processing

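Counting at least 5 marker UMIs left genes at least 2-fold apart at 147 (aged vehicle against young, main 322), 153 (aged D+Q against aged vehicle, main 284) and 80 (aged D+Q against young, main 242), and a minimum of 60 counts left 91, 68 and 71, where fewer genes were tested. Without barcodes meeting the fibroblast rule the aged D+Q against young count was 129. Genes higher than in all other barcodes (main 495) were 204 at 5 marker UMIs and 217 without fibroblast-rule barcodes, and 175 to 415 with 1 library left out. Genes higher than in endothelial barcodes (main 467) were 207 and 258 in those settings, and 258 to 407 with 1 library left out. Lower genes against all other barcodes (main 649) were 137 by DESeq2, 235 at 5 marker UMIs and 274 without fibroblast-rule barcodes, and against endothelial barcodes (main 291) 71, 85 and 142. Genes higher than in fibroblast barcodes (main 2) were 0 at the 25% mitochondrial limit, at 5 marker UMIs, without Ren1 as a marker and without the barcode with 100 or more marker UMIs, 1 by DESeq2, 8 without fibroblast-rule barcodes, 10 without barcodes with 10 or more leukocyte UMIs, 11 with no filter, and 1 to 16 with 1 library left out. Genes lower than in fibroblast barcodes (main 0) were 4 without doublets, 12 without leukocyte-rich and 27 without fibroblast-rule barcodes, 70 with no filter and 1 to 18 with 1 library left out. Shares of selected barcodes were 0.140%, 0.101% and 0.0972% at 5 marker UMIs and 0.241%, 0.118% and 0.158% thinned (aged D+Q, aged vehicle, young).

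Signs turned, among named genes with over 3 UMIs in either library, for these log2 ratios. Aged vehicle over young: Cyp7b1 (-0.53 without doublets, -0.81 at 5 marker UMIs), Acta2 (0.75 at the 25% limit, 0.63 without the barcode with 100 or more marker UMIs, 0.84 without fibroblast-rule barcodes) and Sparcl1 (0.28 at the 25% limit, 0.81 without that barcode). Aged D+Q over aged vehicle: Fn1 (0.23 without leukocyte-rich barcodes). Aged D+Q over young: Il1rapl1 (-0.16 at 5 marker UMIs), Cryab (-0.11 without leukocyte-rich barcodes), Tagln (0.15 without fibroblast-rule barcodes), Sparcl1 and Myh11 (0.65 and 0.50 both at the 25% limit and without that barcode, 1.11 and 0.26 without fibroblast-rule barcodes). Against all other barcodes Wfdc17, Saa3 and Lyz2 stood at -6.85, -7.13 and -0.35 without the aged vehicle library (up to 4.82, 4.87 and 4.52 without another), and Saa3 and Slpi at -7.33 and -0.64 without leukocyte-rich barcodes. The barcode with 100 or more marker UMIs had 28.2% mitochondrial counts and met the fibroblast rule. The 25% limit and the fibroblast-rule removal thus left it out too. For Acta2, Tagln, Sparcl1 and Myh11 these settings are therefore not separate checks. The cause was not tested beyond these removals. Of the other named fold changes 368 values kept their direction and call and 78 their direction only. A named gene that was no longer fitted in a setting gave no value there and is not in these counts. Pln, Ctnna3 and Dgkb without the barcode with 100 or more marker UMIs are such cases. With no replicate block (no library term) 565 genes were higher and 602 lower than in all other barcodes, 454 and 230 against endothelial, and 2 and 0 against fibroblast barcodes. The barcode removals named above and the thinning were chosen after seeing the data, and the test between contractile- and pericyte-leaning barcodes was not run in any setting, for too few barcodes.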
